A study of Mus musculus with 16 samples.

Results

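Plau, Plaur, Serpinb2, Plat and Plgrkt are the genes of the urokinase and plasminogen activation system followed here. They were taken by gene name from the deposited tables, where each name occurs once, and are 5 of 54532 genes. Urokinase (Plau) and tissue plasminogen activator (Plat) are serine proteases that cut plasminogen, a zymogen made mainly by the liver, into plasmin, which degrades fibrin and matrix proteins and activates latent growth factors and metalloproteinases. The urokinase receptor (Plaur), a surface protein held by a lipid anchor, concentrates urokinase at the cell edge, binds the matrix protein vitronectin and works with integrins. Plgrkt is a membrane receptor that binds plasminogen, and Serpinb2 (plasminogen activator inhibitor 2) is a serpin made by stimulated monocytes and macrophages that can inhibit both activators. Macrophages are a known source of urokinase and its receptor in wounds and in the infarcted heart.

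RNA came from macrophages that were grown from the marrow of tibiae with CSF-1, the growth factor of the macrophage lineage. The mice were wild-type C57BL/6J, aged 2 to 3 months. There were 4 groups of 4 libraries. The group fibronectin_antiITGAV grew on dishes coated with fibronectin at 10 µg/ml and received an antibody that neutralizes the αV integrin subunit, and fibronectin_IgG grew on the same coating with an IgG antibody. The groups uncoated_antiITGAV and uncoated_IgG received the same antibodies on normal culture dishes. Both antibodies were used at 10 µg/ml for 24 h, and all cells had first been held in 15% serum with CSF-1 at 12 ng/ml for 24 h and at 120 ng/ml for 48 h. The study asks what αV integrin does in macrophages, in connection with the heart after infarction. Nothing in the labels says that the libraries of a group came from separate cultures or mice, so the p-values measure the spread between these libraries, which may be technical.

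Total counts were 27995035 to 43413650 per library. Where a gene had no count in a library, up to 3 counts remained possible, equal to 0.0688 to 0.106 CPM (TMM-scaled counts per 1e6 counts); such limits cover counting error only. The 10 macrophage markers summed to 27500 to 35100 CPM in every library, and those of T and NK cells to 0.527 CPM or less. The 8 fibroblast markers (Lum at 0) summed to 5.33 to 9.09 CPM on fibronectin, against 10.9 to 15.3 CPM on uncoated dishes. The 8 mast cell and basophil markers summed to 10.6 to 21.1 CPM on fibronectin, against 22.7 to 37.1 CPM on uncoated dishes, and the 6 B lymphocyte markers to 29.7 to 44.9 CPM, against 60.8 to 79.6 CPM. Averaged over antibodies, edgeR called 3 of 5 fibroblast markers tested lower on fibronectin and 0 higher. It called 4 of 8 mast cell and basophil markers and 3 of 6 B lymphocyte markers lower, and 0 higher. The 10 neutrophil markers summed to 239 to 407 CPM in fibronectin_antiITGAV and 351 to 405 CPM in uncoated_antiITGAV, and to 357 to 445 CPM in fibronectin_IgG and 455 to 493 CPM in uncoated_IgG. Of these 10, edgeR called 6 lower on fibronectin averaged over antibodies (5.26% of all genes tested), 5 under anti-ITGAV (2.83%) and 0 under IgG (1.42%). With anti-ITGAV it called 4 lower averaged over coatings (0.0323% of all genes tested), 2 on fibronectin (0.0129%) and 0 on uncoated dishes (0%). The 6 megakaryocyte and platelet markers (Gp1bb at 0) summed to 394 to 503 CPM on fibronectin, against 547 to 701 CPM on uncoated dishes, and 3 of them were tested. The median marker of this list had a mean of 1.56 CPM and that of the B lymphocyte list 0.432 CPM, so a few genes carried each sum. The sum of the 7 endothelial markers (Emcn at 0) went the other way under IgG, at 32.8 to 35 CPM in fibronectin_IgG and 24.8 to 26.8 CPM in uncoated_IgG. Under anti-ITGAV the sums overlapped, at 22.4 to 36.1 CPM on fibronectin and 26.2 to 31.7 CPM on uncoated dishes. Of the 5 endothelial markers tested, edgeR called 1 higher and 0 lower on fibronectin under each antibody. Averaged over antibodies it called 2 higher (6.58% of all genes tested) and 1 lower (5.26%). The part of these other cells in the results on coating and antibody was not tested. In these bulk libraries a change in the number of cells of a type and in RNA per cell cannot be told apart. The library fibronectin_antiITGAV 3 stood apart, where mitochondrial transcripts took 3.67%, against 1.3 to 1.6% elsewhere. Its trend on GC content had rho -0.69, against -0.29 to 0.54 in the other libraries. Member values that move by over 1.5 times, or change side of the threshold, without this library are given both ways.

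Of the 5 members, 3 passed the filter on low counts and were tested (Plau, Plaur and Plgrkt). Serpinb2 and Plat did not pass and are described by their counts alone. On fibronectin, Plau RNA stood 2.65-fold and Plaur RNA 2.18-fold above uncoated dishes under IgG, and 2.56-fold and 1.87-fold above under anti-ITGAV. Plgrkt did not pass the test in any comparison, and the αV antibody moved none of the 3 past the threshold on either coating.

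Plau, the urokinase gene, lies on chromosome 14 from 20836660 to 20843385 on the plus strand (GRCm38, ENSMUSG00000021822). Under anti-ITGAV it had 303, 348, 365 and 408 CPM in the 4 fibronectin libraries, against 173, 115, 155 and 114 CPM in the 4 uncoated libraries. Under IgG it had 305, 293, 336 and 377 CPM on fibronectin, against 93.4, 117, 139 and 145 CPM on uncoated dishes. The lowest of the 8 fibronectin libraries therefore held more Plau than the highest of the 8 uncoated ones. Group means were 356 ± 43.7 CPM in fibronectin_antiITGAV and 139 ± 29.4 CPM in uncoated_antiITGAV, 328 ± 37.5 CPM in fibronectin_IgG and 124 ± 23.7 CPM in uncoated_IgG (SD, n = 4 each).

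The log2 change of Plau with coating was 1.36 ± 0.16 (SE, 95% interval 1.03 to 1.69, edgeR adjusted p = 0.000123) under anti-ITGAV and 1.40 ± 0.16 (1.07 to 1.74, edgeR adjusted p = 8.72e-05) under IgG. These comparisons share no library, but both use a spread estimated over all 16 libraries. Under IgG, Plau ranked 13 by p and 143 by size of change among the 15469 genes tested. Averaged over both antibodies the log2 change was 1.38 ± 0.11 (SE, edgeR adjusted p = 6.79e-07).

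**Figure D1:**
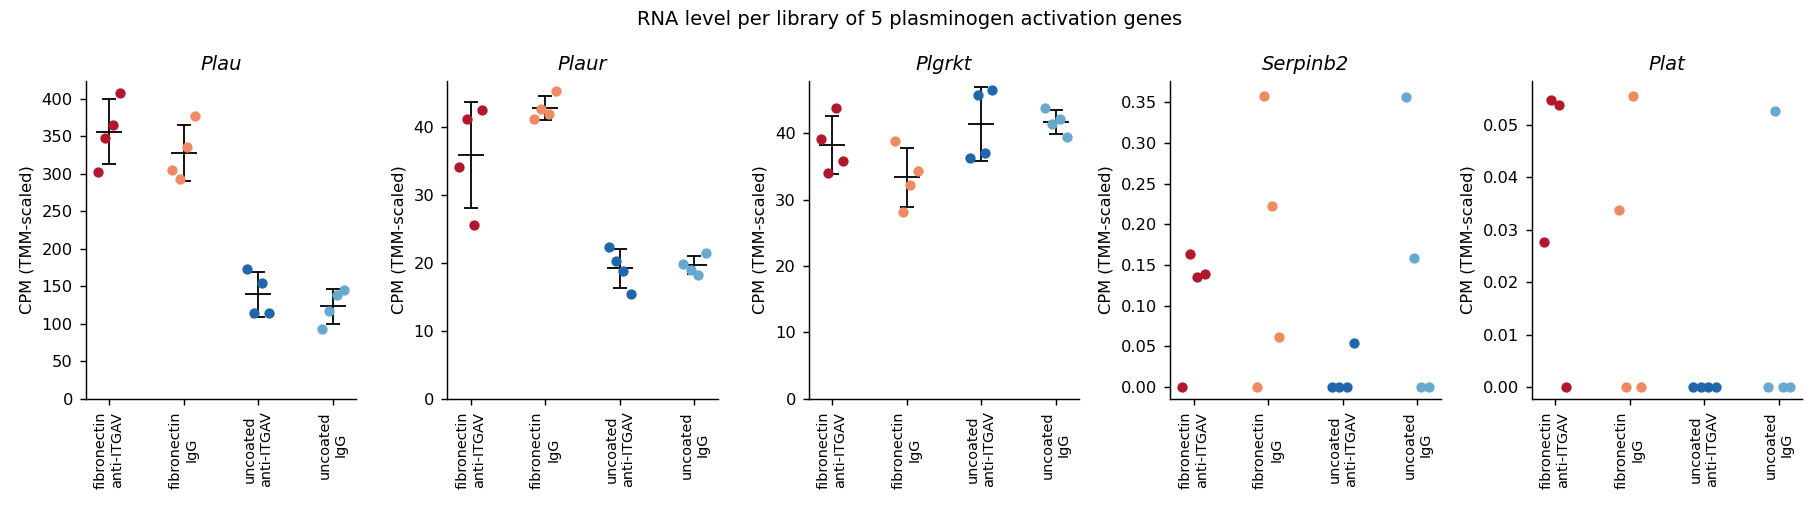
TMM-scaled CPM of Plau, Plaur, Plgrkt, Serpinb2 and Plat, with 1 point per library in each of the 4 groups; bars for the first 3 genes are the mean and SD (n = 4), and each panel has its own axis. For Plau and Plaur every fibronectin library lies above every uncoated library, while Serpinb2 stays at or under 0.358 CPM and Plat at or under 0.0555 CPM.

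Plaur, the receptor gene, lies on chromosome 7 from 24462484 to 24475968 on the plus strand (ENSMUSG00000046223). Under anti-ITGAV it had 34.2, 41.2, 25.6 and 42.6 CPM on fibronectin, against 22.3, 20.3, 18.8 and 15.4 CPM on uncoated dishes. Under IgG it had 41.2, 42.7, 41.9 and 45.3 CPM on fibronectin, against 19.9, 19.0, 18.3 and 21.4 CPM on uncoated dishes. Again no fibronectin library overlapped an uncoated one, and the lowest fibronectin value, 25.6 CPM, belonged to fibronectin_antiITGAV 3. The 4 fibronectin_IgG libraries lay close together, at 42.8 ± 1.77 CPM, against 19.6 ± 1.33 CPM in uncoated_IgG (SD, n = 4 each). The fibronectin_antiITGAV libraries averaged 35.9 ± 7.80 CPM, against 19.2 ± 2.92 CPM in uncoated_antiITGAV (SD, n = 4 each).

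The log2 change of Plaur with coating was 0.90 ± 0.14 (SE, 95% interval 0.60 to 1.20, edgeR adjusted p = 0.00164) under anti-ITGAV and 1.12 ± 0.14 (0.82 to 1.42, edgeR adjusted p = 0.000256) under IgG. Without fibronectin_antiITGAV 3 the value under anti-ITGAV was 1.03 ± 0.11 (SE, edgeR adjusted p = 4.12e-05). Averaged over both antibodies the Plaur value was 1.01 ± 0.10 (SE, edgeR adjusted p = 5.16e-06). Thus 2 of the 3 members tested were higher on fibronectin under each antibody, where 2.84% of all genes tested were called higher under anti-ITGAV and 2.37% under IgG. In either direction 5.66% and 3.79% were called, and 2.83% and 1.42% were called lower. Without fibronectin_antiITGAV 3 edgeR called 972 genes under anti-ITGAV, against 876 with it, and 1325 under IgG, against 586. Of all genes tested, 6.55% under anti-ITGAV and 7.89% under IgG were higher on fibronectin with no overlap between libraries, as Plau and Plaur were, and 2.01% were so over all 16 libraries.

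The 250 bases before the RefSeq start sites are shown because Plaur differed with coating, Plgrkt did not pass, and Serpinb2 was near its counting limit in these cells. RefSeq promoters (GRCm38.p6) matched 3 of the 5 members, Plaur, Serpinb2 and Plgrkt; Plau and Plat did not match. Each is given 5′ to 3′ on the gene's strand, and capitals mark matches on either strand to TGANTCA (the AP-1 site), TATAAA (the TATA box) or CCAAT (the CCAAT box). No match overlapped another.
Plaur: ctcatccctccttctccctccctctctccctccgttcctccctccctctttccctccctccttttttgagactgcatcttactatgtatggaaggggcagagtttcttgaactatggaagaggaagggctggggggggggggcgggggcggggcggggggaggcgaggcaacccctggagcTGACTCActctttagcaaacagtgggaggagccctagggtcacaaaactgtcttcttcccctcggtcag
Serpinb2: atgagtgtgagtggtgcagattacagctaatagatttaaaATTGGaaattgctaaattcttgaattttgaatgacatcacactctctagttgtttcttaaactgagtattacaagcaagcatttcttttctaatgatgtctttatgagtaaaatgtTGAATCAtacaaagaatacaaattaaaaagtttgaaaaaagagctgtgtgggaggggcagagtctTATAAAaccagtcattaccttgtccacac
Plgrkt: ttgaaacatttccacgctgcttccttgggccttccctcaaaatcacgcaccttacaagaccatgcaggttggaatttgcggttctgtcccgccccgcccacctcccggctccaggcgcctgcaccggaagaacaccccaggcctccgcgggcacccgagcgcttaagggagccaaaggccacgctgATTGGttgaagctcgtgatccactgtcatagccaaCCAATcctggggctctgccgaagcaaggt
These windows are chr7:24462233-24462482 on the plus strand, chr1:107511173-107511422 on the plus strand and chr19:29361872-29362121 on the minus strand. The Plgrkt window belongs to a RefSeq start that lies 5519 bases inside the deposited gene.

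The Plaur window held 1 match to the AP-1 site, TGACTCA, at -69 to -63 from the start site, and none to the other motifs. The Serpinb2 window held TGAATCA at -94 to -88, a TATA box at -29 to -24 and 1 CCAAT box on the opposite strand. The Plgrkt window held 2 CCAAT boxes, 1 on each strand, and no AP-1 match. Among 32851 RefSeq promoter windows of the same length, 6.75% held the AP-1 letters, 12.4% the TATA letters and 33.8% the CCAAT letters. A match says only that these letters are present.

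Plgrkt, the plasminogen receptor gene, lies on chromosome 19 from 29348599 to 29367390 on the minus strand (ENSMUSG00000016495). Under anti-ITGAV it had 39.2, 34.0, 43.9 and 35.9 CPM on fibronectin, against 36.3, 45.8, 37.0 and 46.6 CPM on uncoated dishes, and these groups overlapped. Under IgG it had 38.8, 28.2, 32.2 and 34.3 CPM on fibronectin, against 43.9, 41.4, 42.2 and 39.5 CPM on uncoated dishes. There the groups did not overlap, as for 5.26% of all genes tested that were lower on fibronectin; under anti-ITGAV that share was 7.53%. The log2 change with coating was -0.11 ± 0.12 (SE, 95% interval -0.36 to 0.13, edgeR adjusted p = 0.579) under anti-ITGAV and -0.32 ± 0.12 (-0.57 to -0.08, edgeR adjusted p = 0.162) under IgG. Without fibronectin_antiITGAV 3 the value under anti-ITGAV was -0.19 (edgeR adjusted p = 0.4), and without uncoated_antiITGAV 2 or 4 or fibronectin_antiITGAV 2 it was -0.06, -0.05 and -0.07. With each library's trend on GC content taken out, the value under IgG was -0.32 with an edgeR adjusted p = 0.0287, so its side of the threshold depended on that step.

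Serpinb2, the inhibitor gene on chromosome 1 (107511423 to 107535478, plus strand, ENSMUSG00000062345), was barely detected. Its counts in libraries 1 to 4 were 0, 6, 5 and 4 in fibronectin_antiITGAV, 0, 12, 8 and 2 in fibronectin_IgG, 0, 0, 0 and 2 in uncoated_antiITGAV, and 12, 6, 0 and 0 in uncoated_IgG. Every group had at least 1 library at 0, and the groups overlapped, with no more than 0.358 CPM in any library. The gene overlaps Serpinb10 on the same strand, and how the authors' counting treated reads in both is not given in the sources used here.

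Plat, the tissue activator gene on chromosome 8 (22757727 to 22782844, plus strand, ENSMUSG00000031538) was at the counting limit in all 16 libraries. Its summed counts were 5 in fibronectin_antiITGAV and 0 in uncoated_antiITGAV, and 3 in fibronectin_IgG and 2 in uncoated_IgG, with at most 2 in any library. All lay within the limit that a count of 0 allows, so no fold is given and a difference was not detectable at this depth.

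Levels between genes can be compared per length, in FPKM (the authors' counts scaled by gene length and library). This takes the deposited length, 2617 bases for Plaur and 3799 for Plgrkt, as that of the expressed transcripts, which was not tested. On uncoated dishes the order was Plau, Plgrkt, Plaur in both groups, with Serpinb2 and Plat far below. Plau had 47.7 to 71.1 FPKM in uncoated_antiITGAV and 39.1 to 60.2 FPKM in uncoated_IgG. Plgrkt stood at 9.32 to 12.1 and 10.2 to 11.4 FPKM and Plaur at 5.84 to 8.32 and 6.95 to 8.01 FPKM in the same groups, and these neighbours did not overlap. On fibronectin Plaur came before Plgrkt in the order of FPKM means. In CPM, which takes no account of length, this held in fibronectin_IgG (42.8 against 33.4 CPM). It was reversed in fibronectin_antiITGAV (35.9 against 38.3 CPM). In fibronectin_IgG Plaur had 15.3 to 16.9 FPKM and Plgrkt 7.34 to 9.95 FPKM, which did not overlap. In fibronectin_antiITGAV they had 9.75 to 16.1 FPKM and 8.88 to 11.5 FPKM, which overlapped through library 3, so their order there was not distinct. Plau had 125 to 170 FPKM in fibronectin_antiITGAV and 122 to 156 FPKM in fibronectin_IgG, and Serpinb2 and Plat were at or under 0.150 FPKM in every library of all 4 groups, too low to be ordered.

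For the antibody, 0 of the 3 members tested were called by edgeR on either coating, and none had an unadjusted p under 0.05 there; DESeq2 called 0 as well. The background was low, at 0.0129% of genes called in either direction on each coating. On fibronectin, the log2 change with anti-ITGAV was 0.12 ± 0.15 for Plau (SE, 95% interval -0.21 to 0.44), -0.25 ± 0.14 for Plaur (-0.55 to 0.04) and 0.20 ± 0.12 for Plgrkt (-0.05 to 0.44). The edgeR adjusted p was 0.792 for Plau and 0.721 for the other two. Without fibronectin_antiITGAV 3 the Plaur value was -0.12 ± 0.11 (SE, edgeR adjusted p = 1) and the Plgrkt value 0.12 ± 0.11 (SE, edgeR adjusted p = 1). Leaving out each of the 16 libraries in turn gave 0.05 to 0.20 for Plau, -0.34 to -0.12 for Plaur and 0.12 to 0.28 for Plgrkt.

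On uncoated dishes the log2 change with anti-ITGAV was 0.17 ± 0.15 for Plau (SE, 95% interval -0.16 to 0.49), -0.03 ± 0.14 for Plaur (-0.33 to 0.27) and -0.01 ± 0.12 for Plgrkt (-0.26 to 0.23), with edgeR adjusted p = 0.988, 0.989 and 0.993. Averaged over coatings the 3 values were 0.14 ± 0.11, -0.14 ± 0.10 and 0.09 ± 0.08 (SE, edgeR adjusted p = 1 each). Leaving out 1 library gave 0.082 to 0.19 for Plau, -0.19 to -0.077 for Plaur and 0.056 to 0.13 for Plgrkt, where -0.077 for Plaur and 0.056 for Plgrkt were the values without fibronectin_antiITGAV 3. On uncoated dishes alone Plau spanned 0.046 to 0.25. The upper end of the averaged interval was a 1.30-fold rise for Plau, and the lower end was 0.783-fold for Plaur. Itgav, the gene of the antibody's target, had log2 changes of 0.25 ± 0.16 on fibronectin and -0.07 ± 0.16 on uncoated dishes (SE, edgeR adjusted p = 0.721 and 0.988); the antibody acts on the protein, so this RNA does not check the labels.

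The coating by antibody interaction asks whether the antibody acted differently on fibronectin and on uncoated dishes. It was -0.05 ± 0.22 for Plau (SE, 95% interval -0.51 to 0.41), -0.22 ± 0.20 for Plaur (-0.64 to 0.20) and 0.21 ± 0.16 for Plgrkt (-0.14 to 0.55), with edgeR adjusted p = 0.931, 0.654 and 0.647. Without fibronectin_antiITGAV 3 the Plaur value was -0.088 and the Plgrkt value 0.13 (edgeR adjusted p = 0.878 and 0.845). Leaving out 1 library gave -0.31 to -0.088 for Plaur, 0.13 to 0.30 for Plgrkt and both signs for Plau, -0.135 to 0.0715. EdgeR called 0 of the 3 members, none with an unadjusted p under 0.05, as did DESeq2. Of all genes tested edgeR called 0 and DESeq2 1, with 614 and 826 at an unadjusted p under 0.05.

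**Figure D2:**
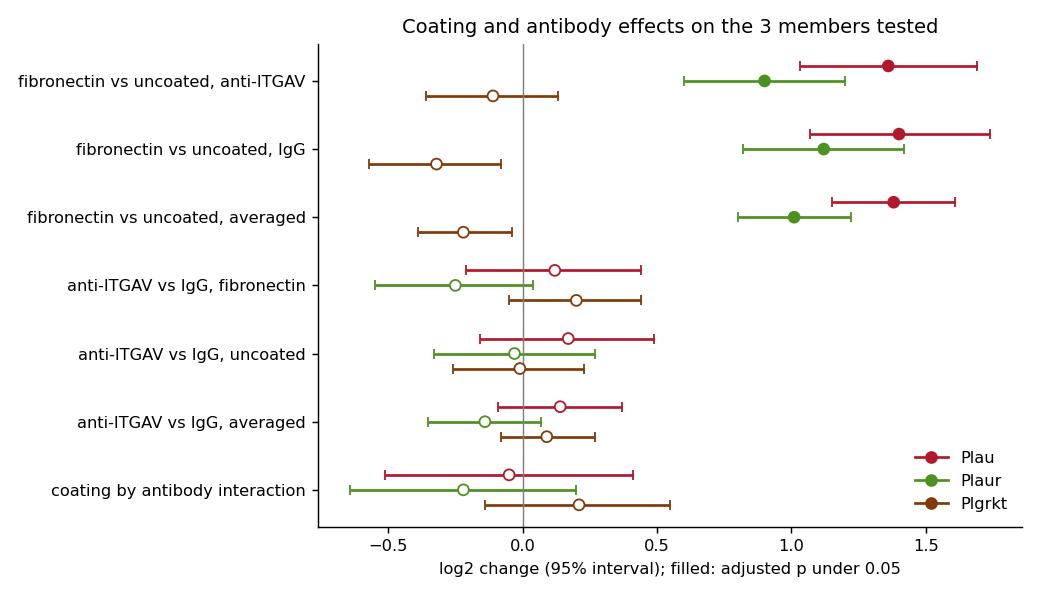
Log2 changes of Plau, Plaur and Plgrkt with their 95% intervals (edgeR) for each comparison, with the zero line drawn; filled points have an adjusted p under 0.05. The 6 coating values of Plau and Plaur, from 0.90 to 1.40, are filled, and the intervals of all antibody and interaction values include 0.

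Other genes of the pathway were followed in 9 lists. Of the activators and the zymogen, Plau alone was abundant enough to test. Plasminogen itself (Plg) had no count in any library, and the contact-phase protease genes F12, Klkb1 and F11 stayed at or under 0.337 CPM.

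The ratio of Plau to Plaur in FPKM was 9.34 to 15.8 in fibronectin_antiITGAV and 6.24 to 9.12 in uncoated_antiITGAV, and 7.60 to 9.22 in fibronectin_IgG and 5.19 to 8.41 in uncoated_IgG. This ratio was formed after the values were seen and was not tested; its ranges overlapped between coatings under IgG and not under anti-ITGAV. The ratio of 15.8 is that of fibronectin_antiITGAV 3.

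Of 14 genes of the urokinase receptor and its membrane partners, 12 were tested, and 6 rose on fibronectin averaged over antibodies and 0 fell (median log2 change 0.43, against 0.00 over all genes). In that comparison 11.8% of all genes were called, 6.58% higher and 5.26% lower. Besides Plaur they were Itgav (0.68, edgeR adjusted p = 0.000648), Igf2r, which binds latent TGF-β, plasminogen and the receptor (0.39, edgeR adjusted p = 0.000703), the formyl peptide receptor genes Fpr1 (0.52, edgeR adjusted p = 0.0032) and Fpr2 (0.61, edgeR adjusted p = 0.00395), and the fibronectin receptor subunit Itga5 (0.47, edgeR adjusted p = 0.0116). Under IgG alone 3 rose, Plaur, Igf2r and Itga5, and under anti-ITGAV alone 4, Plaur, Itgav, Fpr1 and Fpr2. The Itga5 call under IgG ended without any 1 of 13 libraries (edgeR adjusted p = 0.0509 to 0.171) and in 5 other settings (0.0542 to 0.135), the Fpr2 call without any 1 of 8 (0.0507 to 0.116) and in 5 other settings (0.0726 to 0.36), among them the GC offset, and the Fpr1 call without uncoated_antiITGAV 1 or 2 or fibronectin_antiITGAV 1 (0.0521 to 0.0929). Itgam and Itgb2, the subunits of Mac-1, a leukocyte integrin that binds the receptor, were not called on either coating comparison (log2 change 0.31 and 0.07 under anti-ITGAV, 0.06 and 0.21 under IgG).

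Plgrkt belongs to 10 plasminogen binding proteins of the cell surface, all of them tested. Averaged over antibodies Eno1, a glycolytic enzyme that also binds plasminogen at the surface (0.30, edgeR adjusted p = 0.0247), and Anxa2, the annexin that holds both tissue activator and plasminogen (0.21, edgeR adjusted p = 0.0422), rose and none fell. The Eno1 call ended without any 1 of 8 libraries (edgeR adjusted p = 0.0534 to 0.0661) and the Anxa2 call without any 1 of 11 (0.064 to 0.114). Under IgG alone they had 0.42 and 0.31 (edgeR adjusted p = 0.0614 and 0.0665). The median was 0.15, against 0.00 over all genes. The Plgrkt value was -0.22 ± 0.08 (SE, edgeR adjusted p = 0.103), and -0.25 with an edgeR adjusted p = 0.0271 without fibronectin_antiITGAV 3. Eno1, Anxa2, Actb and Hmgb1 have near-identical processed copies in the genome, so their counts are uncertain.

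Of 8 genes that clear activator and inhibitor complexes, 7 were tested. Lrp8, a receptor of the LDL receptor family, rose under anti-ITGAV (0.56, edgeR adjusted p = 0.00762) and under IgG (0.67, edgeR adjusted p = 0.00261). Sorl1, a sorting receptor that binds the urokinase receptor complex, fell under anti-ITGAV (-0.44, edgeR adjusted p = 0.0104, but 0.0772 with only the 8 libraries compared) and had -0.18 under IgG (edgeR adjusted p = 0.365). Lrp1, the main receptor for such complexes, stood at 4970 CPM in uncoated_IgG and passed on neither coating comparison (-0.06 under anti-ITGAV and 0.39 under IgG, edgeR adjusted p = 0.874 and 0.326). Of 16 substrates 14 were tested, and under each antibody Mmp12 (1.20 under anti-ITGAV, 0.91 under IgG) rose and Thbs1 fell (-1.36 and -1.21), with edgeR adjusted p of 0.00123 and 0.00788 for Mmp12 and 3.9e-06 and 2.03e-05 for Thbs1. Fn1, the fibronectin gene, rose under IgG (0.66, edgeR adjusted p = 0.00312), and under anti-ITGAV had 0.40 (edgeR adjusted p = 0.0492, a call that ended without any 1 of 13 libraries, 0.0512 to 0.145). Mmp13 rose under anti-ITGAV (0.84, edgeR adjusted p = 0.0188, but 0.0634 and 0.0693 without uncoated_antiITGAV 1 or 3).

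**Figure D3:**
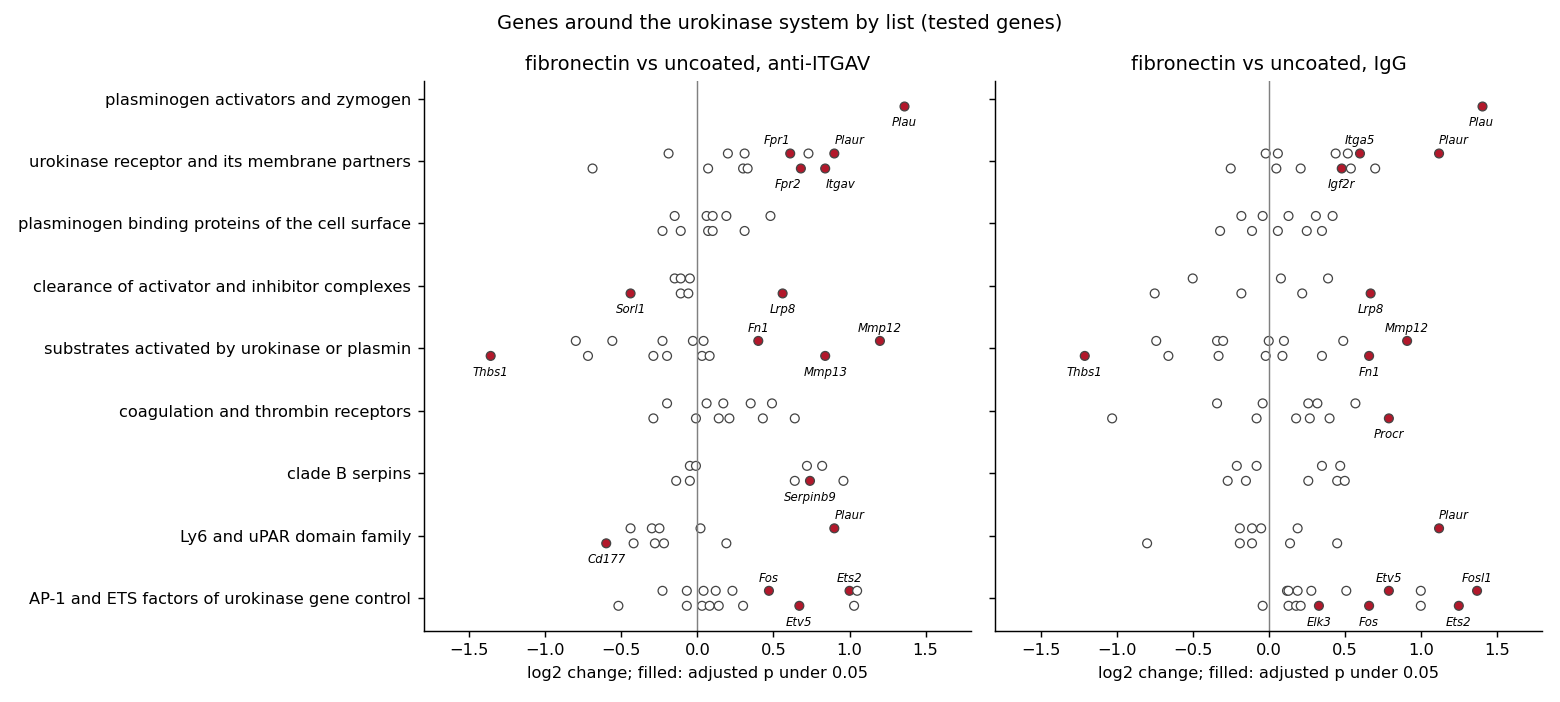
Log2 changes with fibronectin coating of the tested genes of 9 lists, under anti-ITGAV and under IgG, with 1 point per gene and filled, named points where the adjusted p is under 0.05 (edgeR). Plau stands farthest to the right under anti-ITGAV (1.36) and under IgG (1.40), and Thbs1 farthest to the left (-1.36 and -1.21).

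In the coagulation list 11 of 14 genes were tested. Procr, the endothelial protein C receptor gene, rose under IgG (0.79, edgeR adjusted p = 0.0088) and had 0.49 under anti-ITGAV (edgeR adjusted p = 0.0766). Averaged over antibodies Procr, Thbd and Tgm2 rose and none fell, and the Thbd and Tgm2 calls ended without any 1 of 11 and 10 libraries (edgeR adjusted p = 0.0543 to 0.1 and 0.0508 to 0.072). The tissue factor gene F3, the trigger of coagulation, was low, at 0.0459 to 0.728 CPM over the 16 libraries.

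Among relatives of the members, 9 of 13 clade B serpins were tested. Averaged over antibodies 4 rose and 0 fell, Serpinb9, the granzyme B inhibitor (0.50, edgeR adjusted p = 0.00713), and Serpinb1b, Serpinb6b and Serpinb9b, whose calls ended without any 1 of 10, 12 and 7 libraries (edgeR adjusted p = 0.0595 to 0.0854, 0.053 to 0.138 and 0.0595 to 0.0814). Serpinb9 had 0.74 under anti-ITGAV (edgeR adjusted p = 0.0124, but 0.0838 with only the 8 libraries compared). Under IgG it had 0.26 (edgeR adjusted p = 0.498). The clade B genes are near-identical in part, so their counts are uncertain. Of 19 genes with the Ly6 and uPAR fold 10 were tested, and Plaur was the 1 that rose under each antibody. Cd177, a neutrophil surface protein gene, had -0.60 under anti-ITGAV (edgeR adjusted p = 0.0358), a call that ended without any 1 of 6 libraries (0.0556 to 0.109) and in 6 other settings (0.06 to 0.125). It is not one of the 10 neutrophil markers, of which 5 were called lower in the same comparison.

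The last list held AP-1 and ETS factors, families that are known to act at the urokinase gene's enhancer. All 16 were tested, and averaged over antibodies 5 rose on fibronectin and 0 fell (median 0.24, against 0.00 over all genes). Ets2 rose under anti-ITGAV (1.00 ± 0.14, SE, edgeR adjusted p = 0.000585) and under IgG (1.25 ± 0.14, SE, edgeR adjusted p = 8.72e-05). Etv5 also rose under each (0.67 and 0.79, edgeR adjusted p = 0.00596 and 0.00211). Fos rose under IgG (0.66, edgeR adjusted p = 0.00237) and under anti-ITGAV (0.47, edgeR adjusted p = 0.0178, but 0.0515 to 0.0643 without uncoated_antiITGAV 2, 3 or 4). Averaged over antibodies Fosl1 (1.21, edgeR adjusted p = 0.00218) and Elk3 (0.32, edgeR adjusted p = 0.00322) rose too. Neither was called under anti-ITGAV alone (1.05 and 0.30, edgeR adjusted p = 0.0698 and 0.0639). Under IgG the Fosl1 call (1.37, edgeR adjusted p = 0.028) ended without any 1 of 7 libraries (0.0516 to 0.105). The Elk3 call there (0.33, edgeR adjusted p = 0.0492) ended without any 1 of 14 libraries (0.0588 to 0.19) and in 5 other settings (0.0518 to 0.13). Fos was the 1 gene of the 9 lists called for the antibody, at 0.64 averaged over coatings (edgeR adjusted p = 0.001), where 0.0711% of all genes were called, 0.0388% higher and 0.0323% lower. Egr1 (1.23 ± 0.23) and Atf3 (0.33 ± 0.06) of the same list narrowly missed the threshold there (SE, edgeR adjusted p = 0.0517 each). The median of this list was 0.04, against -0.01 over all genes. On uncoated dishes alone Fos had 0.74 (edgeR adjusted p = 0.0264), a call that ended without any 1 of 11 libraries (0.0536 to 0.247). It also ended in 5 other settings (0.051 to 0.198), among them the replicate block and the GC offset.

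The genes whose pattern was most like each member's were sought among 9476 protein-coding genes with at least 5 CPM, by Pearson's r of log2 CPM over the 16 libraries. For Plau they were Ets2 (r = 0.99), Myc (0.981) and Odc1 (0.978). For Plaur they were Pprc1 (0.978), Nolc1 (0.977) and Cgnl1 (0.973), and for Plgrkt Ric1 (0.933), Snap23 (0.918) and Ccng2 (0.917). The libraries share the coating difference, which alone gives a high r for Plau and Plaur. With group means taken out, r was 0.93 for Plau with Ets2, 0.82 with Myc and 0.83 with Odc1, 0.77 to 0.86 for the 3 genes of Plaur, and 0.88 to 0.91 for those of Plgrkt. Taking out group means leaves each library's trend on GC content (rho -0.69 to 0.54), whose part in these r was not tested. These genes were the highest of 9476 by choice, so no p is given.

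Ets2 had 111, 124, 131 and 150 CPM in fibronectin_antiITGAV libraries 1 to 4, against 71.5, 56.4, 77.9 and 52.2 CPM in uncoated_antiITGAV. In fibronectin_IgG it had 115, 125, 132 and 140 CPM, against 44.0, 50.9, 56.2 and 63.8 CPM in uncoated_IgG. Within fibronectin_antiITGAV and uncoated_IgG the libraries fall in the same order for both genes. Libraries 1 and 2 of fibronectin_IgG stand in the opposite order for Ets2 and Plau, and so do libraries 1 and 3 of uncoated_antiITGAV.

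**Figure D4:**
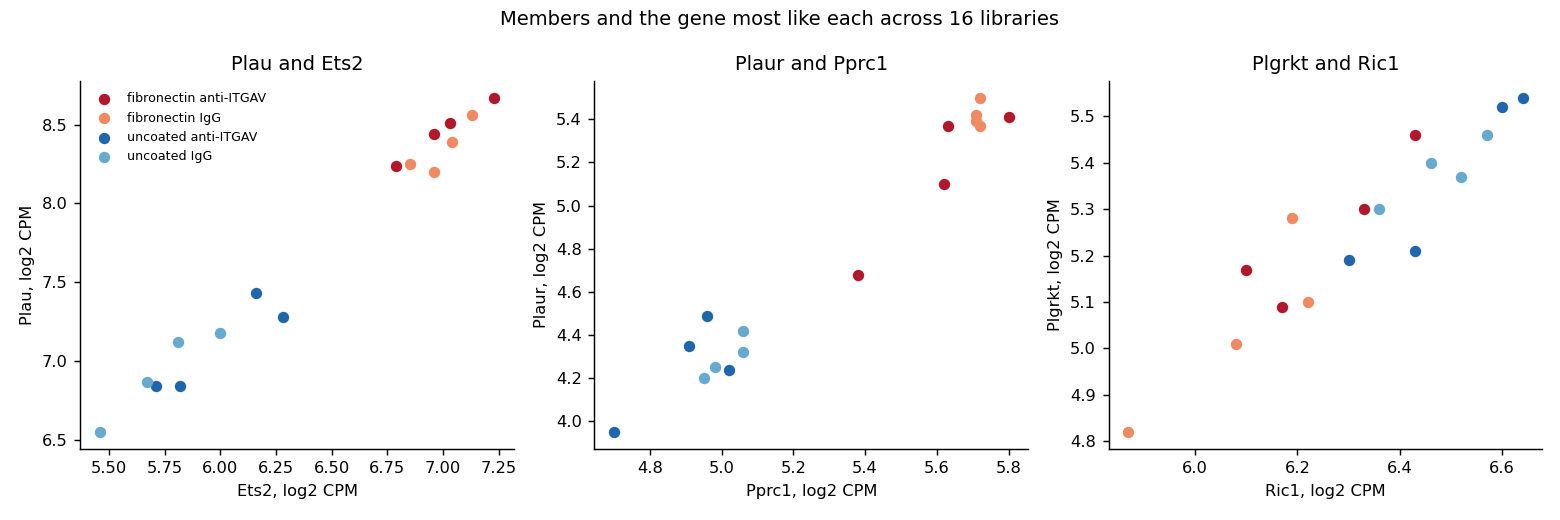
Log2 CPM of Plau against Ets2, Plaur against Pprc1 and Plgrkt against Ric1, with 1 point per library coloured by group. Plau and Ets2 fall along 1 line within and between the coatings (r = 0.99 over 16 libraries), Plaur and Pprc1 form a cluster for each coating with fibronectin_antiITGAV 3 the lowest of the fibronectin points, and the coatings overlap for Plgrkt and Ric1.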

How the data were processed

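RNA was extracted with TRIzol, polyA-selected and sequenced as paired ends, per the labels' protocols. The authors deposited whole-number counts per gene and library, and FPKM for the same genes. The submitters' processing notes list featureCounts, StringTie and HISAT2 with GRCm38.p6 (mm10). How strand and multi-mapping reads were treated was not stated. Each deposited FPKM equals count over gene length and 1 constant per library.

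Counts were fitted with edgeR 4.0.16 in R 4.3.3: filterByExpr (minimum count 10; 15469 genes kept), TMM, 1 mean per group over 16 libraries, robust quasi-likelihood F tests, Benjamini-Hochberg adjustment over all genes tested, threshold 0.05. SE is the log2 change over the square root of F. Alternatives used DESeq2 1.42.0 and limma 3.58.1 (log2 of FPKM plus 1 or 0.1). The fit was tested on simulated data. Members, lists and tests were chosen with earlier results of these data known. Named genes are the members, up to 4 called genes per list and comparison, Itgav, and the 3 genes most like each tested member. Elk3, the genes named without a call and the genes named for copies lie outside this rule and were chosen after their values were seen. The replicates of a group differed beyond sampling noise (chi-square over df 5.4 to 207). The list of inhibitors is not reported here.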

Additional observations from a re-analysis of the deposited data

Results flagged for a closer look

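In 2 of the 19 sets of 4 libraries examined (5 genes by 4 groups, less the group where Plat was 0 throughout), 1 library lay apart from the other 3 by Dixon's 95% criterion. Chance passes this criterion in about 1 set of 20 where values are spread normally, which counts near 0 are not. Serpinb2 had 0.0548 CPM in uncoated_antiITGAV 4 and 0 in the other 3 libraries of that group. Plat had 0.0526 CPM in uncoated_IgG 2 and 0 in the other 3. Each rests on 2 counts, which is within the limit of 3 counts that a count of 0 allows. With the other 3 libraries at 0, any count above 0 passes the criterion, so the rate of 1 in 20 does not apply to these 2 sets.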

How the results depend on the processing

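The coating calls of Plau and Plaur kept their direction and their side of the threshold under all 13 other settings and without each of the 16 libraries. Over the other settings the log2 change of Plau was 1.345 to 1.404 under anti-ITGAV and 1.389 to 1.486 under IgG, and that of Plaur 0.8075 to 1.061 and 1.017 to 1.16. Leaving out 1 library gave 1.272 to 1.477 and 1.292 to 1.492 for Plau, and 0.8068 to 1.034 and 1.07 to 1.167 for Plaur.

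Plgrkt passed with the GC offset under IgG (-0.3198), and averaged over antibodies with the GC offset (-0.239), with the replicate block and GC offset (-0.2407) and with voom quality weights (-0.2094); without 1 library it was -0.2702 to -0.1814. With voom weights the antibody value of Plaur on uncoated dishes was 0.009453 and that of Plgrkt averaged over coatings -0.003668, both of the opposite sign. Without 1 library the antibody values on uncoated dishes were -0.1124 to 0.05962 for Plaur and -0.07215 to 0.04695 for Plgrkt, and the interaction of Plau -0.135 to 0.0715. The cause was not tested.

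Genes called for coating under anti-ITGAV were 1532 with DESeq2, 251 with only its 8 libraries, 1829 with the GC offset, 1673 with block and GC offset and 2216 with voom weights (main 876; 428 to 1037 without 1 library). Under IgG they were 1015 with DESeq2, 1565, 1385 and 2487 with the last 3 settings (main 586; 253 to 1325 without 1 library). The 1325 was the number without fibronectin_antiITGAV 3, which adds to the shared spread but is not in this comparison. Averaged over antibodies these 3 gave 3277, 3062 and 4186 (main 1831; 1325 to 2468). For the antibody on fibronectin they were 18 with DESeq2, 4 with no filter and with unfiltered FPKM, 0 with 8 libraries, 12 with the GC offset, 6 with block and GC offset and 6 with voom (main 2; 1 to 5). On uncoated dishes they were 26, 9, 1 and 157 with DESeq2, GC offset, block and GC offset and voom, and 1 with unfiltered FPKM (main 2; 0 to 2). Averaged over coatings they were 50, 45, 38 and 103, and 18 with log2(FPKM + 0.1) (main 11; 4 to 22). DESeq2 called 1 interaction. The highest numbers without 1 library averaged over antibodies (2468), for the antibody on fibronectin (5) and averaged over coatings (22) also came without fibronectin_antiITGAV 3.

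Same-numbered libraries did not deviate together (r -0.3 to 0.28 over 24 pairs, 4 over 0.1), and 2 of 16 libraries correlated best with their own number. This cannot show whether a number marks a shared mouse or culture, which the labels do not say. With the replicate block 360 genes were called for coating under IgG and 0 for the antibody on uncoated dishes, and no member's call changed. Among list genes named for coating, the block ended the calls of Itga5 and Elk3 under IgG, of Fn1, Fpr2 and Cd177 under anti-ITGAV, and of Eno1, Anxa2, Tgm2, Thbd, Serpinb6b and Cd177 averaged over antibodies. Fitting only the 8 libraries ended those of Fn1, Sorl1, Fos, Serpinb9, Fpr1, Fpr2 and Cd177 under anti-ITGAV. The cause was not tested.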
